A study of Mus musculus with 6 samples.

Results

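Autophagy is the process by which a cell wraps part of its own contents in a double membrane, the autophagosome, and delivers it to the lysosome for breakdown. Described here are 10 genes of this process, taken by symbol from a deposited expression table of 24964 genes. All 10 were found, and all lay above the minimum level for testing. They are Ulk1, Becn1, Wipi1, Atg5, Map1lc3a, Map1lc3b, Gabarapl1, Gabarapl2, Sqstm1 and Tfeb. They were compared in laser-captured uterine luminal epithelium, the cell sheet facing the uterine cavity, of female mice on day 4 of pregnancy. The Foxo1dd samples came from Pgrcre/+Foxo1f/f females, in which both Foxo1 alleles are floxed and 1 Pgr allele carries a Cre recombinase. The Foxo1ff samples came from Foxo1f/f females, which carry the same floxed alleles and no Cre. Each group holds 3 bioreplicates from females kept with littermates until 8 weeks old and then mated. Pgr is the progesterone receptor gene, so Cre is expected wherever that gene is or has been active, stroma included, and the genotypes differ at Pgr as well as at Foxo1.

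The ULK1 kinase starts autophagosome formation, and Beclin 1, the product of Becn1, then activates a lipid kinase whose product recruits WIPI proteins. ATG5 belongs to the machinery that joins LC3 and GABARAP proteins to the growing membrane, where they hold cargo receptors such as p62, the product of Sqstm1. FOXO transcription factors are known inducers of several of these genes in mouse muscle and liver, and TFEB is a transcription factor for lysosomal and autophagy genes. On pregnancy day 4 the mouse luminal epithelium is preparing for attachment of the embryo.

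Of the 10 genes, 3 of the 4 that encode LC3 or GABARAP proteins fell in Foxo1dd epithelium and 2 others rose. Gabarapl1 fell 7.39-fold, the largest change among the members, and Map1lc3b and Map1lc3a fell 1.97-fold and 1.95-fold. Tfeb rose 2.35-fold and Becn1 1.91-fold. Ulk1, Wipi1, Atg5, Gabarapl2 and Sqstm1 did not pass the threshold, a Benjamini-Hochberg adjusted p under 0.05 in limma. The share called was no larger than that of the transcriptome: 5 of 10 members passed, while 56.4% of the 11427 genes tested did, 22.2% higher and 34.2% lower in Foxo1dd. The median log2 difference was -0.19 over the members and -0.15 over all genes tested.

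Foxo1 itself was at 1.72, 0.942 and 1.22 FPKM in the 3 Foxo1dd samples, against 160.0, 119 and 111 FPKM in the Foxo1ff samples, which fits the genotype labels. FPKM is a read count divided by gene length and library depth. Levels, shares and orders of different genes can be compared only as far as the gene lengths used hold, and these were not stated. Pgr was at 36.2, 29.9 and 28.3 FPKM in Foxo1dd and 2.44, 1.64 and 2.02 FPKM in Foxo1ff. Foxo1dd 2 stood somewhat apart, with 13995 genes above 0 and the highest ribosomal RNA precursor Rn45s (40296 FPKM), while the other 5 samples had 15474 to 16062 such genes. The 12 luminal and other epithelial markers summed to 3309 to 3724 FPKM in Foxo1dd and 2239 to 2915 FPKM in Foxo1ff. They went both ways, as 5 rose by limma (Krt8, Krt19, Wnt7a, Lpar3 and Elf3) and 2 fell (Cdh1 and Epcam). Krt8 was at 680 ± 49 FPKM in Foxo1dd and 280 ± 50 FPKM in Foxo1ff (SD, n = 3 each). Cdh1 and Epcam were at 194 ± 25 and 393 ± 12 FPKM in Foxo1dd and 289 ± 52 and 555 ± 50 FPKM in Foxo1ff (SD, n = 3 each). The summed level of 7 glandular markers was 6.92 to 25.7 FPKM in Foxo1dd and 49.4 to 202 FPKM in Foxo1ff, with the defining factor Foxa2 between 0.399 and 1.36 FPKM in every sample. Most of that sum in Foxo1ff was Spink1 (0.307 FPKM or less in Foxo1dd, 44.2 to 178 FPKM in Foxo1ff), and the glandular marker Sox9 went the other way, at 15.1 ± 8.3 FPKM in Foxo1dd and 1.90 ± 1.9 FPKM in Foxo1ff (SD, n = 3 each). The 12 leukocyte markers summed to 73.8 to 92.8 FPKM in Foxo1dd and 40.9 to 87.4 FPKM in Foxo1ff. Most of the Foxo1dd sum was Laptm5 (53.2 to 70.7 FPKM in Foxo1dd, 2.73 to 5.78 FPKM in Foxo1ff), while 5 of the 7 leukocyte markers tested, Ptprc, Csf1r, C1qa, C1qb and Lyz2, fell 3.23-fold to 12.2-fold by limma. Laptm5 and the remaining tested marker, Cd68, rose by limma. Cd68 was at 7.50 ± 1.7 FPKM in Foxo1dd and 4.73 ± 0.54 FPKM in Foxo1ff (SD, n = 3 each). The 12 stroma markers summed to 40.8 to 55.7 FPKM in Foxo1dd and 35.9 to 40.7 FPKM in Foxo1ff. Nr2f2 alone stood at 25.0 to 31.4 FPKM in Foxo1dd and 20.7 to 23.3 FPKM in Foxo1ff. Of the 9 stroma markers tested, 3 rose by limma (Col3a1, Sparc and Nr2f2) and 0 fell. Sums of 8 endothelial and 6 smooth muscle markers stayed at 7.01 FPKM or less in every sample. No marker of these lists was at 0 in all samples, and their part in the results below was not tested. In captured tissue, fewer cells of a type and less RNA per cell cannot be told apart.

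Gabarapl1 (chromosome 6, 129533160 to 129542346, plus strand, mm10), a GABARAP-like protein that is joined to autophagosome membranes, changed most. Its level was 56.9, 62.6 and 64.5 FPKM in the Foxo1dd samples, against 418, 492 and 448 FPKM in the Foxo1ff samples. The groups were far apart and the spread within each was small. The log2 difference was -2.86 ± 0.12 (limma SE, n = 3 per group, adjusted p = 3.27e-07), at or below which lay 2.07% of all genes tested. The annotation places exons of 1700101I11Rik on the opposite strand, and that gene had 0 FPKM in each Foxo1dd sample and 0.431 to 0.780 FPKM in Foxo1ff.

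Map1lc3b (chromosome 8, 121590361 to 121598760, plus strand) encodes LC3B, the protein most used to mark autophagosomes. It had 107, 115 and 118 FPKM in Foxo1dd and 206, 238 and 226 FPKM in Foxo1ff. No Foxo1dd sample reached the lowest Foxo1ff sample, and the log2 difference was -0.97 ± 0.11 (SE, n = 3 per group, limma adjusted p = 8.94e-05). Its exons overlap those of Zcchc14 on the other strand, which was at 5.72 to 8.29 FPKM in Foxo1dd and 11.2 to 14.2 FPKM in Foxo1ff, so the value of Map1lc3b is uncertain to that extent. Map1lc3a (chromosome 2, 155276297 to 155278073, plus strand), which encodes the related LC3A, had 48.3, 46.0 and 66.8 FPKM in Foxo1dd and 99.2, 110.0 and 105 FPKM in Foxo1ff. Here too the groups were apart, with Foxo1dd 3 the highest of its group, and the log2 difference was -0.97 ± 0.15 (SE, n = 3 per group, limma adjusted p = 5.91e-04).

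Gabarapl2 (chromosome 8, 111940703 to 111953612, plus strand), the gene of GATE-16, had 61.7, 49.2 and 55.0 FPKM in Foxo1dd and 54.5, 73.0 and 84.1 FPKM in Foxo1ff. The groups overlapped through Foxo1ff 1, the lowest of its group. The log2 difference of -0.33 had a 95% interval of -0.71 to 0.06 (limma adjusted p = 0.129). Without Foxo1ff replicate 1 it was -0.50 and passed (limma adjusted p = 0.0203), and over all alternatives its adjusted p ran from 0.0203 to 0.415.

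**Figure D1:**
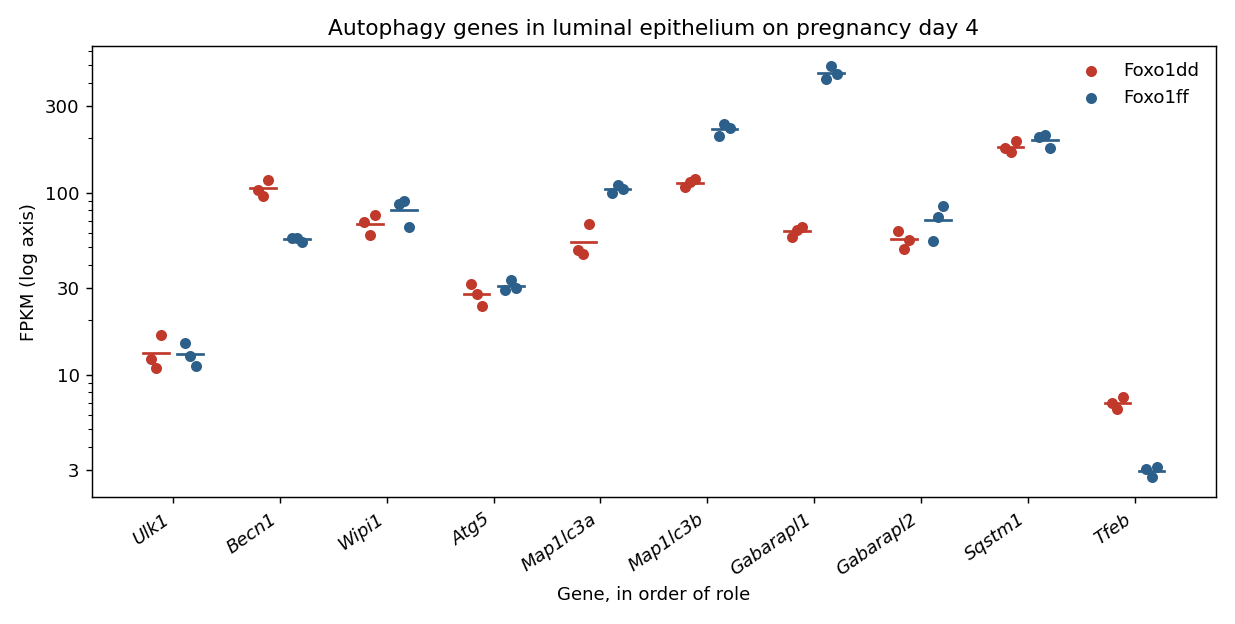
FPKM (log axis) of the 10 autophagy genes in each of the 3 Foxo1dd (red) and 3 Foxo1ff (blue) samples, 1 point per sample, with a bar at each group mean. Gabarapl1, Map1lc3a and Map1lc3b lie lower and Becn1 and Tfeb higher in Foxo1dd with no overlap, while the other 5 genes overlap.

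Gabarap, the remaining family gene in the table and no member of the set, moved the other way. It had 444, 527 and 475 FPKM in Foxo1dd and 323, 340 and 332 FPKM in Foxo1ff (log2 difference 0.53 ± 0.12, SE, n = 3 per group, limma adjusted p = 0.00382). The makeup of the family therefore differed between the genotypes. Gabarapl1 made up 8.01 ± 0.24% of the summed FPKM of the 5 family genes in Foxo1dd and 38.3 ± 0.93% in Foxo1ff (SD, n = 3 each). Gabarap made up 62.9 ± 2.7% in Foxo1dd and 28.1 ± 1.2% in Foxo1ff (SD, n = 3 each). Gabarapl1 was the most abundant of the 5 in every Foxo1ff sample, and Gabarap in every Foxo1dd sample. The family sum was 718, 800 and 779 FPKM in Foxo1dd, against 1101, 1253 and 1196 FPKM in Foxo1ff, a lower total in every Foxo1dd sample. Within the LC3 pair, the ratio of Map1lc3b to Map1lc3a was 2.21, 2.49 and 1.77 in Foxo1dd and 2.07, 2.16 and 2.16 in Foxo1ff, so the groups overlapped.

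**Figure D2:**
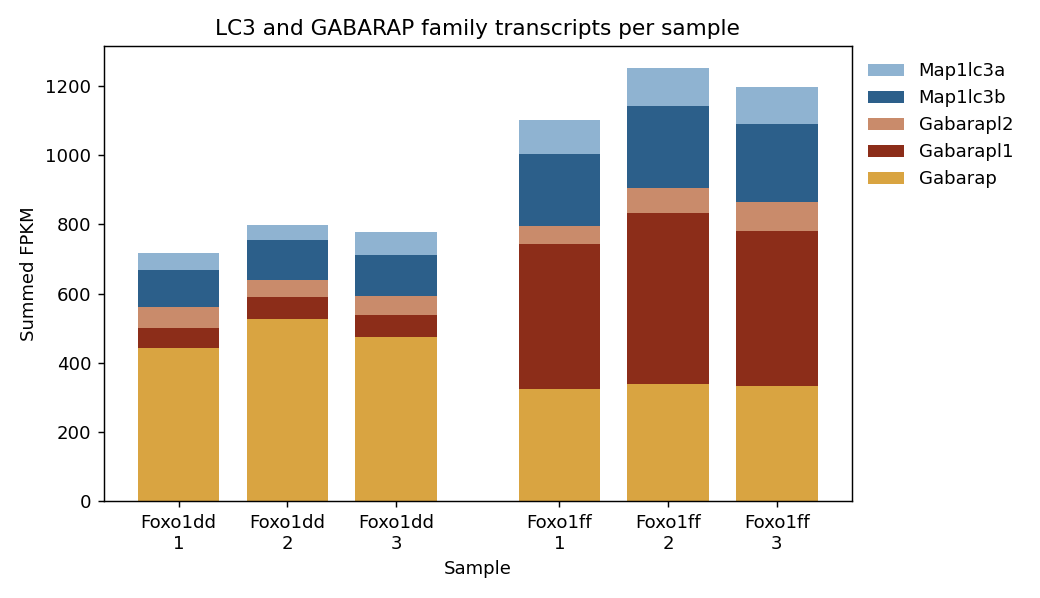
Stacked FPKM of the 5 LC3 and GABARAP family genes in each Foxo1dd and Foxo1ff sample. In Foxo1dd bars the Gabarap segment is the largest and Gabarapl1 spans 56.9 to 64.5 FPKM, while in Foxo1ff bars Gabarapl1 is the largest, at 418 to 492 FPKM.

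Becn1 (chromosome 11, 101285952 to 101302286, minus strand), the activating subunit of the autophagy lipid kinase, rose. It had 103, 95.8 and 118 FPKM in Foxo1dd and 56.2, 56.5 and 53.3 FPKM in Foxo1ff. The lowest Foxo1dd sample lay well above the highest Foxo1ff sample, and the log2 difference was 0.91 ± 0.12 (SE, n = 3 per group, limma adjusted p = 1.71e-04). Cntd1, whose exons overlap on the other strand, was at 0.570 to 1.19 FPKM in Foxo1dd and 0.136 to 0.469 FPKM in Foxo1ff.

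Tfeb (chromosome 17, 47737030 to 47792419, plus strand), the transcription factor of the set and its least abundant member, rose as well. Its level was 7.03, 6.47 and 7.50 FPKM in Foxo1dd and 3.05, 2.74 and 3.13 FPKM in Foxo1ff. The samples of each genotype lay close together and the groups did not overlap. The log2 difference was 1.01 ± 0.15 (SE, n = 3 per group, limma adjusted p = 4.42e-04) on the log2(FPKM + 1) scale, which understates changes at such levels. For a gene of 2 kb, 1 read was worth about 0.00509 to 0.00679 FPKM, so Tfeb levels stood at 516 reads or more of such a gene. That is not the read count of Tfeb itself, whose annotated exons cover 5669 bases.

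The other 4 members did not pass the threshold. Ulk1 (chromosome 5, 110784488 to 110810097, minus strand), the initiating kinase, had 12.1, 10.8 and 16.6 FPKM in Foxo1dd and 15.0, 12.7 and 11.1 FPKM in Foxo1ff. Its log2 difference was 0.01, with a 95% interval of -0.40 to 0.43 (limma adjusted p = 0.956), and its sign turned without Foxo1dd replicate 3 (-0.15) or Foxo1ff replicate 3 (-0.08). The highest and the lowest Ulk1 samples were both Foxo1dd samples, so the groups overlapped. Wipi1 (chromosome 11, 109573331 to 109611967, minus strand), a reader of the lipid made by the Beclin 1 complex, had 68.9, 58.8 and 75.1 FPKM in Foxo1dd and 86.6, 89.6 and 64.4 FPKM in Foxo1ff. Foxo1ff 3 lay among the Foxo1dd samples, and the 95% interval of the log2 difference of -0.24 was -0.59 to 0.12 (limma adjusted p = 0.230). Atg5 (chromosome 10, 44268358 to 44364291, plus strand), a part of the conjugation machinery, had 31.4, 27.7 and 23.9 FPKM in Foxo1dd and 29.3, 33.0 and 29.9 FPKM in Foxo1ff. Its interval was -0.46 to 0.15 around a log2 difference of -0.15 (limma adjusted p = 0.364), close to the median of all genes tested.

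Sqstm1 (chromosome 11, 50199366 to 50210827, minus strand), whose product p62 binds ubiquitin-tagged cargo and is itself degraded by autophagy, was among the most abundant members in both genotypes. It had 176, 168 and 192 FPKM in Foxo1dd and 202, 207 and 176 FPKM in Foxo1ff. The groups overlapped, and the log2 difference of -0.13 had a 95% interval of -0.39 to 0.14 (limma adjusted p = 0.384). Its sign turned under median-of-ratios scaling (0.026) and quantile normalization (0.021). Mrnip, whose exons overlap on the other strand, was at 1.73 to 3.68 FPKM in Foxo1dd and 2.38 to 3.38 FPKM in Foxo1ff.

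**Figure D3:**
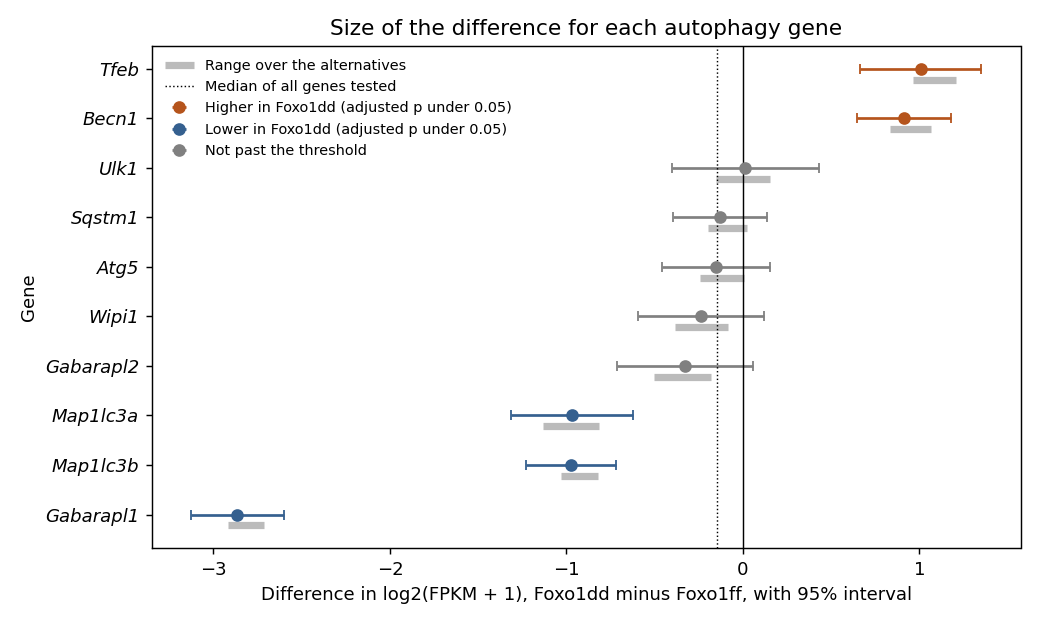
Difference in log2(FPKM + 1), Foxo1dd minus Foxo1ff, of each autophagy gene with its 95% limma interval, and below it a grey bar for the range over the alternative settings. Intervals of Gabarapl1, Map1lc3b, Map1lc3a, Becn1 and Tfeb stay clear of 0, and the dotted line marks the median of all genes tested, -0.15.

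The order of levels differed between the genotypes. Gabarapl1 ranked 5 in Foxo1dd and 1 in Foxo1ff, Becn1 ranked 3 in Foxo1dd and 7 in Foxo1ff, and Map1lc3a ranked 7 in Foxo1dd and 4 in Foxo1ff. In Foxo1dd the highest member was Sqstm1, apart from Map1lc3b and Becn1, which overlapped each other, and then came Wipi1, Gabarapl1, Gabarapl2 and Map1lc3a, whose neighbours in the order overlapped. In Foxo1ff Gabarapl1 led, apart from Map1lc3b and Sqstm1, which overlapped each other, and was followed by Map1lc3a and then by Wipi1, Gabarapl2 and Becn1, each overlapping the next. Atg5, Ulk1 and Tfeb were the lowest in both genotypes, in that order and without overlap. The 10 genes summed to 673, 640 and 737 FPKM in Foxo1dd and 1170, 1315 and 1201 FPKM in Foxo1ff. Without Gabarapl1 the sums as deposited were 616, 577 and 672 FPKM in Foxo1dd and 752, 823 and 753 FPKM in Foxo1ff, so the groups were still apart but nearer. The FPKM of all genes in the table also summed to less in every Foxo1dd sample than in any Foxo1ff sample. Whether the gap without Gabarapl1 remains after rescaling was not tested. Of the 10, 5 had groups that did not overlap, against 64.2% of all genes tested, 25.3% higher and 39% lower in Foxo1dd.

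Promoter sequence was searched because FOXO1 is the deleted factor and TFEB is among the genes that rose. RefSeq (GRCm38.p6) gave 10 start sites for 8 of the 10 genes, and the 250 bases before each start were searched on both strands. Becn1 and Map1lc3a, both past the threshold, had no entry and were not searched. The letters GTAAACA, a full forkhead site, were in 0 of the 10 windows and in 3.17% of 32851 windows of all genes. The shorter core TAAACA, which lies within that site, was in the Gabarapl1 window alone among the members and in 12% of all windows. CACGTG, the E-box bound by TFEB relatives among others, was in the Atg5 window alone among the members and in 6.02% of all windows. Its longer form GTCACGTG and the NRF2-type element TGACNNNGC were in no member's window, and in 1.85% and 10.2% of all windows. A match is a description of letters and shows no binding. The windows of the most reduced gene, of another reduced family gene and of Tfeb are printed up to the first annotated start, 5′ to 3′ on the plus strand, with matches in capitals. Their positions are chr6:129532942-129533159, chr8:121590188-121590360 and chr17:47736787-47737029.
Gabarapl1: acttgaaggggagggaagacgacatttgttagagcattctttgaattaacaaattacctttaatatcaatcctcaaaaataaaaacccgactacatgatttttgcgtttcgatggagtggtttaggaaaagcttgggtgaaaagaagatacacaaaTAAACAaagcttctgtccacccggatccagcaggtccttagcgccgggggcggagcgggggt
Map1lc3b: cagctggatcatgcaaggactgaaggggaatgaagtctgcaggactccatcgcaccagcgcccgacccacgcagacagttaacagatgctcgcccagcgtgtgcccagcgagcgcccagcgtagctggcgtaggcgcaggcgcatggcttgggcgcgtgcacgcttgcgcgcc
Tfeb: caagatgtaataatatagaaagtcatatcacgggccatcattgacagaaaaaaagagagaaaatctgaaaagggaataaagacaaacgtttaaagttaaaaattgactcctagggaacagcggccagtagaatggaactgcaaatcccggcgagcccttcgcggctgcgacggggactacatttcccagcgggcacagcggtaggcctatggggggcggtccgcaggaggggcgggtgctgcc
The TAAACA of Gabarapl1, which fell, begins 94 bases before the RefSeq start, and the Map1lc3b and Tfeb stretches hold none of the 5 motifs.

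Other genes of the pathway were grouped by step, and their counts are to be read against 22.2% higher and 34.2% lower among all genes tested. Counts under median-of-ratios scaling are to be read against 3184 higher and 3302 lower of the 11427 genes. For quantile normalization these were 3236 and 3360. Among the partners and paralog of ULK1 and the kinase complexes that act on it, 0 of 14 genes rose and 5 fell by limma. The counts were the same at an unadjusted p under 0.05 (median log2 difference -0.24). Prkaa2 and Prkaa1, the catalytic subunits of the energy sensor AMPK, were 15.3-fold and 2.86-fold lower in Foxo1dd, at 0.518 ± 0.34 against 7.89 ± 0.90 FPKM and 42.5 ± 4.5 against 122 ± 18 FPKM (SD, n = 3 each). Deptor, an inhibitor within mTOR complexes, was 3.14-fold lower. Prkab1, named after its values were seen, also fell, but lost its call under median-of-ratios (limma adjusted p = 0.0842) and quantile scaling (0.0681). The same held without a filter (0.0527) and without Foxo1dd replicate 1 (0.0859), Foxo1dd replicate 2 (0.0831), Foxo1ff replicate 1 (0.0815) or Foxo1ff replicate 2 (0.0968). Ulk2, the paralog of Ulk1, had 4.74, 3.91 and 3.79 FPKM in Foxo1dd and 5.24, 5.07 and 4.68 FPKM in Foxo1ff and did not pass (limma adjusted p = 0.251). The kinase Mtor itself did not pass either, at 7.10 ± 0.96 against 9.14 ± 1.3 FPKM (SD, n = 3 each, limma adjusted p = 0.124).

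Around Beclin 1, partners moved in both directions. Of 10 tested genes in or around the Beclin 1 complex, Vmp1, Tmem41b and Bcl2l1 included, 1 rose and 5 fell (median log2 difference -0.46). The call of Bcl2l1, which fell and is named after its values were seen, was lost without Foxo1ff replicate 2 (limma adjusted p = 0.0817). Atg14, which directs the complex to autophagosome formation, was at 11.7 ± 1.5 FPKM in Foxo1dd and 24.3 ± 1.5 FPKM in Foxo1ff (SD, n = 3 each, limma adjusted p = 2.58e-04). Nrbf2, a subunit that binds Atg14, was 2.31-fold lower. Uvrag, which takes the place of Atg14 in another form of the complex, was at 28.3 ± 7.6 FPKM in Foxo1dd and 9.65 ± 1.3 FPKM in Foxo1ff (SD, n = 3 each, limma adjusted p = 3.66e-04). The catalytic subunit Pik3c3 had 13.6 ± 2.1 FPKM in Foxo1dd and 15.3 ± 2.2 FPKM in Foxo1ff and did not pass (limma adjusted p = 0.403).

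Among 8 genes for membrane supply and for reading the Beclin 1 lipid, 2 rose and 3 fell (median log2 difference -0.09). Atg9b, a lipid-moving membrane protein, had 0.930, 1.27 and 0.648 FPKM in Foxo1dd, against 101, 101 and 77.0 FPKM in Foxo1ff, and was 97.6-fold lower (log2 difference -5.59 ± 0.17, SE, n = 3 per group, limma adjusted p = 1.21e-07). Nos3, whose exons overlap on the other strand, was at 0.0750 FPKM or less in every sample. Its paralog Atg9a was at 21.6, 17.1 and 27.0 FPKM in Foxo1dd and 17.0, 13.5 and 13.0 FPKM in Foxo1ff. Atg9a accounted for 95.6 ± 2.3% of the Atg9 pair in Foxo1dd and 13.5 ± 1.5% in Foxo1ff (SD, n = 3 each). The call of Atg9a (limma adjusted p = 0.0287) was lost without a filter (0.0624) and without Foxo1dd replicate 1 (0.0723), Foxo1dd replicate 3 (0.0986), Foxo1ff replicate 2 (0.0953) or Foxo1ff replicate 3 (0.0927). In each of these settings 0 genes of this list were higher, since the other, Zfyve1, named after its values were seen, was lost with it. The replicate block also ended the call of Zfyve1 (0.0698), leaving 1 higher. Gm29253 has exons overlapping those of Atg9a on 1 strand, which leaves the Atg9a value uncertain. Atg2a, a lipid transfer protein, was 2.08-fold lower. Wipi2, the paralog of Wipi1, had 42.4 ± 4.7 FPKM in Foxo1dd and 54.8 ± 4.4 FPKM in Foxo1ff (SD, n = 3 each, limma adjusted p = 0.0352). That call was lost under median-of-ratios (0.121) and quantile scaling (0.0980), without a trend (0.0553), with the replicate block (0.0720) and without Foxo1dd replicate 1 (0.0882), Foxo1dd replicate 2 (0.0837), Foxo1ff replicate 1 (0.0882) or Foxo1ff replicate 2 (0.135).

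In the list of the conjugation machinery that acts on LC3 and GABARAP proteins, rises outnumbered falls, and 5 genes were not called. Of 11 genes, Gabarap included, 5 rose and 1 fell (median log2 difference -0.07). Atg4a, a protease that prepares these proteins, had 6.07, 3.45 and 4.64 FPKM in Foxo1dd and 0.927, 1.53 and 1.67 FPKM in Foxo1ff (limma adjusted p = 0.00127). Atg3, the enzyme of their last conjugation step, was at 40.2 ± 5.0 FPKM in Foxo1dd and 24.8 ± 0.69 FPKM in Foxo1ff (SD, n = 3 each, limma adjusted p = 0.00173). Atg4d, another protease of the family, was 1.62-fold lower. The other 2 that rose, named after their values were seen, were Atg4b and Atg10, and the call of Atg4b was lost without Foxo1ff replicate 2 (limma adjusted p = 0.0648). Atg7 and Atg12, which act with Atg5, were at 13.0 ± 2.0 and 39.5 ± 2.5 FPKM in Foxo1dd and 13.7 ± 0.80 and 41.5 ± 2.6 FPKM in Foxo1ff (SD, n = 3 each), and did not pass (limma adjusted p = 0.675 and 0.645).

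Cargo receptors other than Sqstm1 were mostly lower. Of 14 tested, 2 rose and 9 fell (median log2 difference -0.50). Stbd1, a receptor for glycogen, was at 3.06 ± 1.2 FPKM in Foxo1dd and 22.2 ± 3.5 FPKM in Foxo1ff (SD, n = 3 each, limma adjusted p = 1.73e-05). Bnip3, a receptor for mitochondria, had 21.5, 14.5 and 18.6 FPKM in Foxo1dd and 53.8, 90.9 and 82.7 FPKM in Foxo1ff, with no overlap (limma adjusted p = 5.93e-05). Ccpg1, a receptor for the endoplasmic reticulum, was 1.83-fold lower, although exons of Gm44503 overlap it on the same strand and make its value uncertain. The 2 that rose, named after their values were seen, were Optn and Fundc1, and Optn was lost without a filter (limma adjusted p = 0.0625) and without Foxo1dd replicate 2, Foxo1ff replicate 1 or Foxo1ff replicate 3 (0.0730, 0.0974 and 0.0562). Of the 9 that fell, 4 also lost their call under at least 1 alternative, namely Nbr1, Tax1bp1, Bnip3l and Wdfy3. Without Foxo1ff replicate 1, Nbr1, Tax1bp1 and Wdfy3 did not pass (limma adjusted p = 0.0760, 0.0532 and 0.0574), and without Foxo1ff replicate 2, Nbr1, Tax1bp1 and Bnip3l did not (0.0754, 0.0586 and 0.0965). Bnip3l was also lost with the replicate block (0.0638), under median-of-ratios (0.180) and quantile scaling (0.0935), and without Foxo1dd replicate 3 (0.0708) or Foxo1ff replicate 3 (0.0776). Nbr1 was also lost without Foxo1dd replicate 2 (0.0609), and Wdfy3 without a filter (0.0502).

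Genes for fusion of autophagosome and lysosome lay near 0. Of 14, 0 rose and 1 fell by limma (median log2 difference 0.11), and at an unadjusted p under 0.05 the counts were also 0 and 1. Median-of-ratios scaling gave 3 rises and 0 falls, quantile normalization gave 4 and 0, and without Foxo1dd replicate 2, 3 rose and 1 fell. Without Foxo1ff replicate 1, 1 rose and 0 fell. Among all genes tested, 2714 were higher and 3685 lower without Foxo1dd replicate 2, and 2414 and 3467 without Foxo1ff replicate 1. Vps16, a subunit of the HOPS tethering complex, was at 22.2 ± 2.4 FPKM in Foxo1dd and 29.7 ± 1.6 FPKM in Foxo1ff (SD, n = 3 each, limma adjusted p = 0.0219). Its call was lost under median-of-ratios (0.0584) and quantile scaling (0.0689) and without Foxo1dd replicate 3 (0.0636), Foxo1ff replicate 1 (0.0641) or Foxo1ff replicate 2 (0.0845). Vps33a, another HOPS subunit, had 16.0 ± 2.7 FPKM in Foxo1dd and 12.2 ± 0.92 FPKM in Foxo1ff, and the adaptor Plekhm1 12.1 ± 3.3 and 8.04 ± 2.1 FPKM (SD, n = 3 each, limma adjusted p = 0.0818 and 0.0831).

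**Figure D4:**
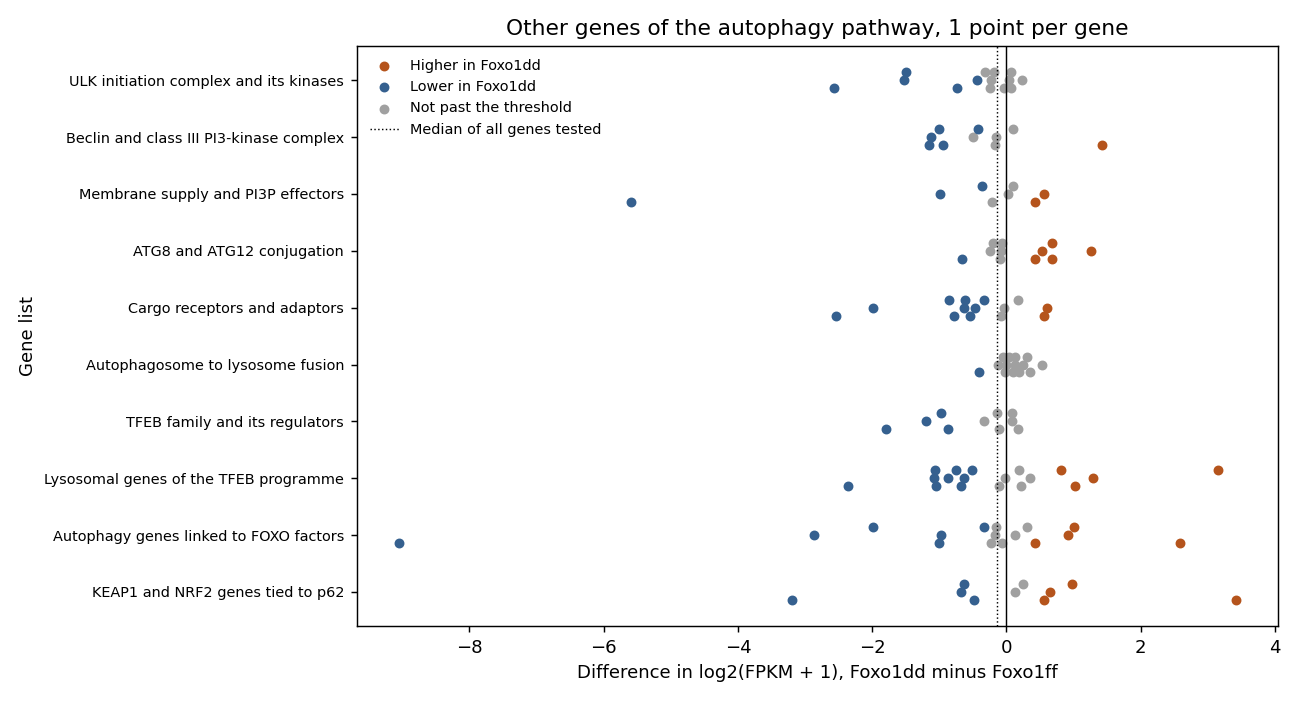
Difference in log2(FPKM + 1), Foxo1dd minus Foxo1ff, of each tested gene in 10 lists around the autophagy genes, 1 point per gene, coloured by the limma call. Points of the cargo receptor and initiation lists lie mostly left of 0, fusion genes cluster near 0, and Atg9b (-5.59) and Depp1 (-9.05) lie far to the left.

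As deposited, the family and regulators of TFEB were either lower or not called, with falls at a share near the 34.2% of all genes tested. Of 10 tested genes, 0 rose and 4 fell by limma, also at an unadjusted p under 0.05 (median log2 difference -0.24), and the counts were 1 and 4 after median-of-ratios scaling or quantile normalization. Fnip2, part of a complex acting on the RagC and RagD proteins that control TFEB, was at 3.54 ± 0.46 FPKM in Foxo1dd and 14.7 ± 0.99 FPKM in Foxo1ff (SD, n = 3 each, limma adjusted p = 1.31e-05). Ppargc1a, a metabolic coactivator known as a TFEB target in mouse liver, was 2.67-fold lower, and Mcoln1, a lysosomal calcium channel that promotes TFEB activation, 1.90-fold lower. The related factor Tfe3 had 13.3 ± 1.5 FPKM in Foxo1dd and 17.0 ± 2.5 FPKM in Foxo1ff and did not pass (limma adjusted p = 0.0985), while Mitf and Tfec lay below the minimum.

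Lysosomal genes counted among TFEB targets went both ways. Of 18, 4 rose and 9 fell (median log2 difference -0.31), or 6 and 7 under median-of-ratios scaling and 7 and 7 under quantile normalization. Ctsd, the protease cathepsin D, had 10186, 9609 and 11985 FPKM in Foxo1dd and 1276, 1031 and 1265 FPKM in Foxo1ff, an 8.90-fold rise (limma adjusted p = 1.15e-06). Gm49369 has exons overlapping those of Ctsd on 1 strand, which leaves the Ctsd value uncertain. Lamp2, a lysosomal membrane protein needed for fusion with autophagosomes, was at 235 ± 22 FPKM in Foxo1dd and 95.1 ± 7.3 FPKM in Foxo1ff (SD, n = 3 each, limma adjusted p = 2.48e-05). Lamp1, the close relative of Lamp2 and named after its values were seen, went the opposite way, with 189 ± 12 FPKM in Foxo1dd and 394 ± 31 FPKM in Foxo1ff (SD, n = 3 each, limma adjusted p = 6.89e-05).

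A list of 16 genes linked to FOXO factors in muscle, liver or fat, which holds the members Map1lc3b, Gabarapl1, Becn1, Tfeb and Atg5, had 4 rises and 6 falls (median log2 difference -0.16). Beside Gabarapl1, those with the smallest p were Depp1, a FOXO-induced gene tied to autophagy and peroxisomes, at 1.62 ± 1.1 FPKM in Foxo1dd and 1326 ± 225 FPKM in Foxo1ff, and Glul, the glutamine synthetase gene, 6.07-fold higher (SD, n = 3 each, limma adjusted p = 1.09e-07 and 5.00e-06). Exons of Mir8114 overlap Glul on the same strand.

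Genes of the KEAP1 and NRF2 pathway, which p62 feeds by binding KEAP1, also split. Of 10 tested, 4 rose and 4 fell (median log2 difference 0.18), or 4 and 2 under median-of-ratios scaling or quantile normalization. Nqo1, a quinone reductase, and Txnrd1, a thioredoxin reductase, rose to 17.5 ± 3.9 and 75.4 ± 10 FPKM in Foxo1dd, against 0.745 ± 0.43 and 37.8 ± 0.75 FPKM in Foxo1ff (SD, n = 3 each, limma adjusted p = 4.72e-06 and 1.91e-04). Me1, the cytosolic malic enzyme, was 9.83-fold lower. Keap1 had 20.9 ± 1.5 FPKM in Foxo1dd and 19.2 ± 1.9 FPKM in Foxo1ff and did not pass (limma adjusted p = 0.452). Nfe2l2, the NRF2 gene, named after its values were seen, was 1.61-fold lower in Foxo1dd (limma adjusted p = 0.00105).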

How the data were processed

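RNA-seq of 6 samples was used, 3 Foxo1dd and 3 Foxo1ff, grouped by their titles. The labels give no further word on the animals behind each bioreplicate, so the p-values speak only of variation among the samples, which may be technical. Beyond the library name, the description labels of all 6 are the same. The deposited table holds FPKM values computed by the authors, 1 column per sample. The submitters' processing notes list the build mm10 and the tools DESeq2 1.12.4, edgeR 3.28.0, featureCounts 1.5.0-p1 (Subread) and STAR 2.5.2b without saying what each did. Annotation, gene lengths and strand setting were not stated there. Reads of genes with exons on opposite strands of 1 locus can therefore not be told apart. In GENCODE M21, from which positions are taken, this concerns Foxo1, Becn1, Map1lc3b, Gabarapl1, Sqstm1, Deptor, Atg14, Uvrag, Atg9a, Atg9b, Atg4d, Bnip3, Ccpg1, Vps16, Plekhm1, Glul, Me1, Optn, Lamp1, Tax1bp1, Wdfy3 and Sgsh among the genes named. Cell type markers and Mtor, Pik3c3, Atg7, Atg12, Tfe3, Mitf, Tfec and Keap1 were not looked up for this.

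FPKM are not counts, so log2(FPKM + 1) was modelled on genotype alone in limma 3.58.1 under R 4.3.3, using lmFit and a trended eBayes. The test covered 11427 genes that averaged 1 FPKM or more, and p-values were adjusted over these by the Benjamini-Hochberg method. The pseudocount of 1 understates changes of low genes. A fold is the ratio of the mean FPKM of the groups. The procedure was also run on simulated data, whose outcome is not given here and on which no result above rests. What 1 read is worth was read from short RNA genes, whose low values were whole multiples of a step to within 0.05 of a read for 88.5% to 100.0% of 26 to 132 genes per sample, fewest in Foxo1dd 2.

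Alternatives were median-of-ratios scaling, a pseudocount of 0.1, a minimum of 5 FPKM, no filter, quantile normalization, no trend, a replicate block and leaving out each sample. The members, the lists, the motifs and the tests were chosen with earlier results of these data known. Named genes are the 10 members, Foxo1, Pgr, Gabarap, Ulk2, Wipi2 and the 3 genes with the smallest p in each list, of which 1 is not reported here. Other genes named were chosen after their values were seen, Mtor, Pik3c3, Atg7, Atg12, Tfe3 and Keap1 among them for their roles.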

Additional observations from a re-analysis of the deposited data

How the results depend on the processing

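Gabarapl1, Map1lc3b, Map1lc3a, Becn1, Tfeb, Foxo1 and Pgr kept their direction and stayed past the threshold under every alternative that tested them. The log2 difference of Gabarapl1 ran from -2.92 to -2.71 and that of Becn1 from 0.83 to 1.07 over 13 alternatives. Tfeb lies below a minimum mean of 5 FPKM, and there 1 member was higher instead of 2. Among members not called, the sign of Sqstm1 turned to 0.026 under median-of-ratios scaling and 0.021 under quantile normalization, and that of Atg5 to 0.0058 under quantile normalization. With a sample left out, the log2 difference ran from -0.15 to 0.14 for Ulk1 and from -0.50 to -0.19 for Gabarapl2, whose call without Foxo1ff replicate 1 is given above. Median-of-ratios scaling moved the median of all genes to -0.0068 and the calls to 3184 higher and 3302 lower, against 2533 and 3912 as deposited. Of 61 called genes of the other lists, 45 kept their call under every alternative that tested them and 16 lost it under at least 1. Same-numbered samples share only a number, with correlations of their deviations of 0.12, 0.11 and -0.13, and 2 of 6 samples correlated best with their own number. With the replicate block 2417 genes were higher and 3724 lower, and the same 2 members were higher and 3 lower. Of the 61, the block ended the calls of Wipi2, Zfyve1 and Bnip3l, given above, and of Sgsh (limma adjusted p = 0.0750). Depth was least certain in Foxo1dd 2, and leaving it out changed the call of no member.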
